A study of Danio rerio with 11 samples.

Results

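Cytochrome P450 genes were followed in whole zebrafish larvae whose parents had been exposed to phthalate plasticizers. The members were all genes in the deposited files whose symbol is cyp followed by a digit, with cyp51 left out, which gave 84 of 27625 genes. By role they comprised 4 genes of family 1, 31 of family 2 outside the cyp2aa cluster, 9 of the cyp2aa cluster, 5 of family 3, 4 of family 4, 7 steroid-making genes, 3 retinoid-clearing genes and 21 genes for sterols, bile acids, vitamin D and other substrates. Symbols written in capitals are those the symbol table gives under a human name, and 10 members share 4 such symbols, so Ensembl identifiers are given where they are needed.

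The larvae were wild-type AB fish collected at 120 h post-fertilization. The libraries fall into 4 groups, each from offspring of parents kept 30 days under one regime: both dibutyl phthalate and diisobutyl phthalate (DBP+DiBP, 3 libraries), DBP alone (3 libraries), DiBP alone (3 libraries), or no agent (control, 2 libraries). DBP and DiBP are isomers that differ in whether the butyl side chains are branched. Neither the doses nor the clutch or pool behind each library are named in the labels. The p-values therefore reflect the scatter among these libraries alone, and that scatter may be technical.

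P450 enzymes carry a heme group and add oxygen to their substrates, and those of the endoplasmic reticulum take electrons from P450 oxidoreductase (POR). Families 1, 2 and 3 are best known for oxidizing drugs, pollutants and fatty acids in liver and gut. Other P450 enzymes make steroid hormones, clear retinoic acid, make bile acids and inactivate vitamin D. Family 1 genes such as CYP1A1 are classic targets of the aryl hydrocarbon receptor, and family 3 genes of the pregnane X receptor.

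Values are FPKM, read counts scaled by gene length and by library total, as deposited. The library totals recovered from them were 13396589 to 15381114 reads. Control 1 stood apart: 12% of tested genes differed at least 2-fold between the 2 controls, and its summed lens markers were 16220 FPKM, against 1308 to 2855 FPKM in the other 10 libraries. DBP+DiBP 3 also differed from its partners, with 6.26 to 6.35% of genes at least 2-fold apart, against 1.86 to 2.89% for all other pairs of exposed libraries. Tested markers of liver, gut, muscle and lens all had reads in every library, as did all but 1 of the 19 pancreas markers. Differences below are on the scale log2(FPKM + 0.1) after TMM scaling, with the standard error, and were called at an adjusted p under 0.05 (limma, Benjamini-Hochberg over 19465 tested genes). This scale understates the change of low genes.

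The summed level of the P450 genes was higher in larvae of either single isomer than in controls. It was 279.3, 301.7 and 259.1 FPKM in DBP+DiBP libraries, 343.2, 351.1 and 353.2 FPKM in DBP libraries, 379, 394.7 and 401.5 FPKM in DiBP libraries, and 257.4 and 263.3 FPKM in controls. All 6 single-isomer libraries lay above both controls, whereas DBP+DiBP 3 lay between the controls. Much of the sum came from 1 gene, cyp2ad3, which averaged 90.1 FPKM over the 11 libraries, followed by cyp3a65 at 51.1 FPKM, CYP24A1 at 24 FPKM, cyp3c1 at 18.2 FPKM and cyp4t8 at 9.01 FPKM.

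Of the 84 genes, 67 passed the filter on low values and were tested. The other 17 never exceeded 0.571 FPKM and had 2 to 64 reads in all 11 libraries together. They were cyp2ae1, cyp2k17, cyp2k21, cyp2k22, cyp2k31, cyp2x6, cyp2x10.1, cyp2aa9, both CYP11A1 genes, cyp17a2, CYP19A1, CYP27B1, CYP7B1, cyp46a1.3, cyp46a1.5 and 1 of 3 CYP8B1 genes (ENSDARG00000097556). The symbol table does not say which aromatase copy CYP19A1 is, and cyp1c1 was not analysed here.

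With DBP+DiBP, 6 P450 genes were called against control, 2 higher and 4 lower, where 3.45% of all tested genes were called, 1.76% higher and 1.69% lower. With DBP, 16 were called, 13 higher and 3 lower (all tested genes: 15.1% called, 9.61% higher and 5.52% lower). With DiBP, 25 were called, 17 higher and 8 lower (all tested genes: 29.8% called, 15.8% higher and 14% lower). The median difference of the 67 genes was -0.0085 for DBP+DiBP, 0.23 for DBP and 0.22 for DiBP. Over all tested genes it was 0.0025 for DBP+DiBP, -0.011 for DBP and 0.017 for DiBP. The 3 comparisons share their controls. The DBP+DiBP count came to 2 without DBP+DiBP 1 or without DBP+DiBP 2, and to 3 without DBP 2 or any 1 DiBP library. In those fits, 1.24 to 1.76% of all tested genes were called. With only 1 control left, the counts depended on which control was kept, for P450 genes and for all tested genes alike.

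**Figure D1:**
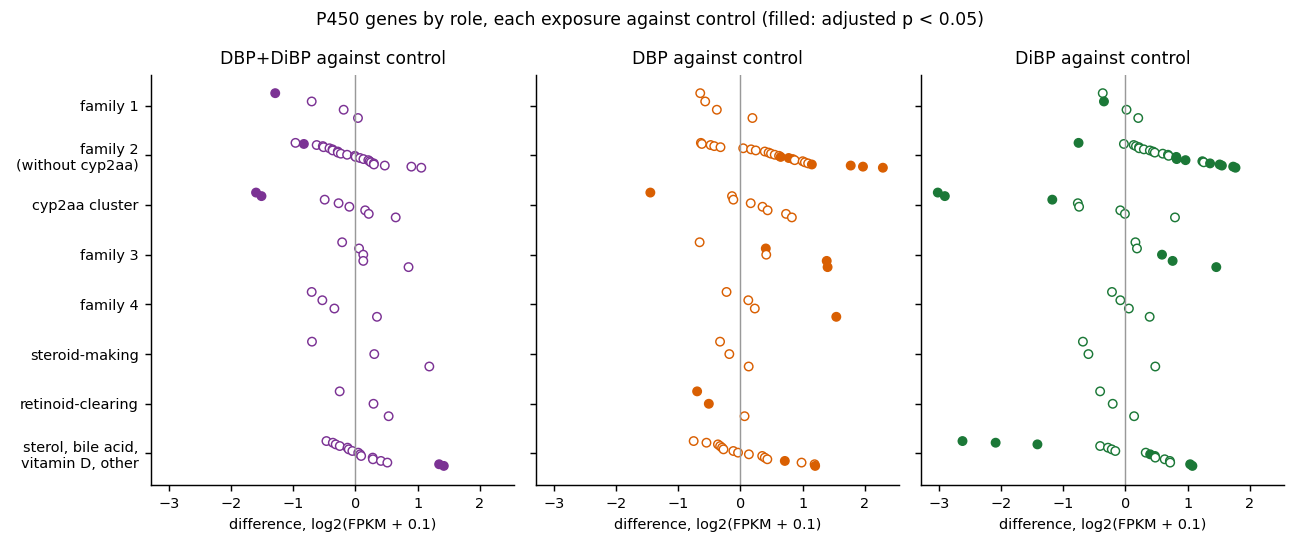
Difference from control of each tested P450 gene on the log2(FPKM + 0.1) scale (horizontal axis), by role (vertical axis), for DBP+DiBP, DBP and DiBP larvae. Each circle is a gene and filled circles are called; family 2 holds 0 higher calls for DBP+DiBP, 7 for DBP and 10 for DiBP, and the 2 lowest circles for DiBP are cyp2aa11 and cyp2aa4.

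Set directly against each single isomer, the combination was mostly lower. Against DBP, 30 P450 genes were called, 4 higher and 26 lower (all tested genes: 20.1% called, 9.14% higher and 11% lower). Against DiBP, 26 were called, 9 higher and 17 lower (all tested genes: 24% called, 11.1% higher and 12.9% lower). The difference of differences, DBP+DiBP minus DBP minus DiBP plus control, was called for 32 genes, 8 above 0 and 24 below (all tested genes: 34% called, 15.5% higher and 18.6% lower). On FPKM as deposited, without TMM scaling, the split against DBP was 8 higher and 20 lower. Without TMM scaling the differences of all genes lay higher, by a median of 0.16 against DBP, 0.11 against DiBP and 0.21 in the difference of differences. TMM scaling itself therefore lowers these differences. The counts came to 19 without DBP 2 in the comparison with DBP, and to 17 without DiBP 3 in the comparison with DiBP. In those fits, 11.4% of all tested genes were called against DBP and 15.1% against DiBP. DBP against DiBP gave 16 calls, 8 higher and 8 lower (all tested genes: 12.3% called, 6.14% higher and 6.15% lower).

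**Figure D2:**
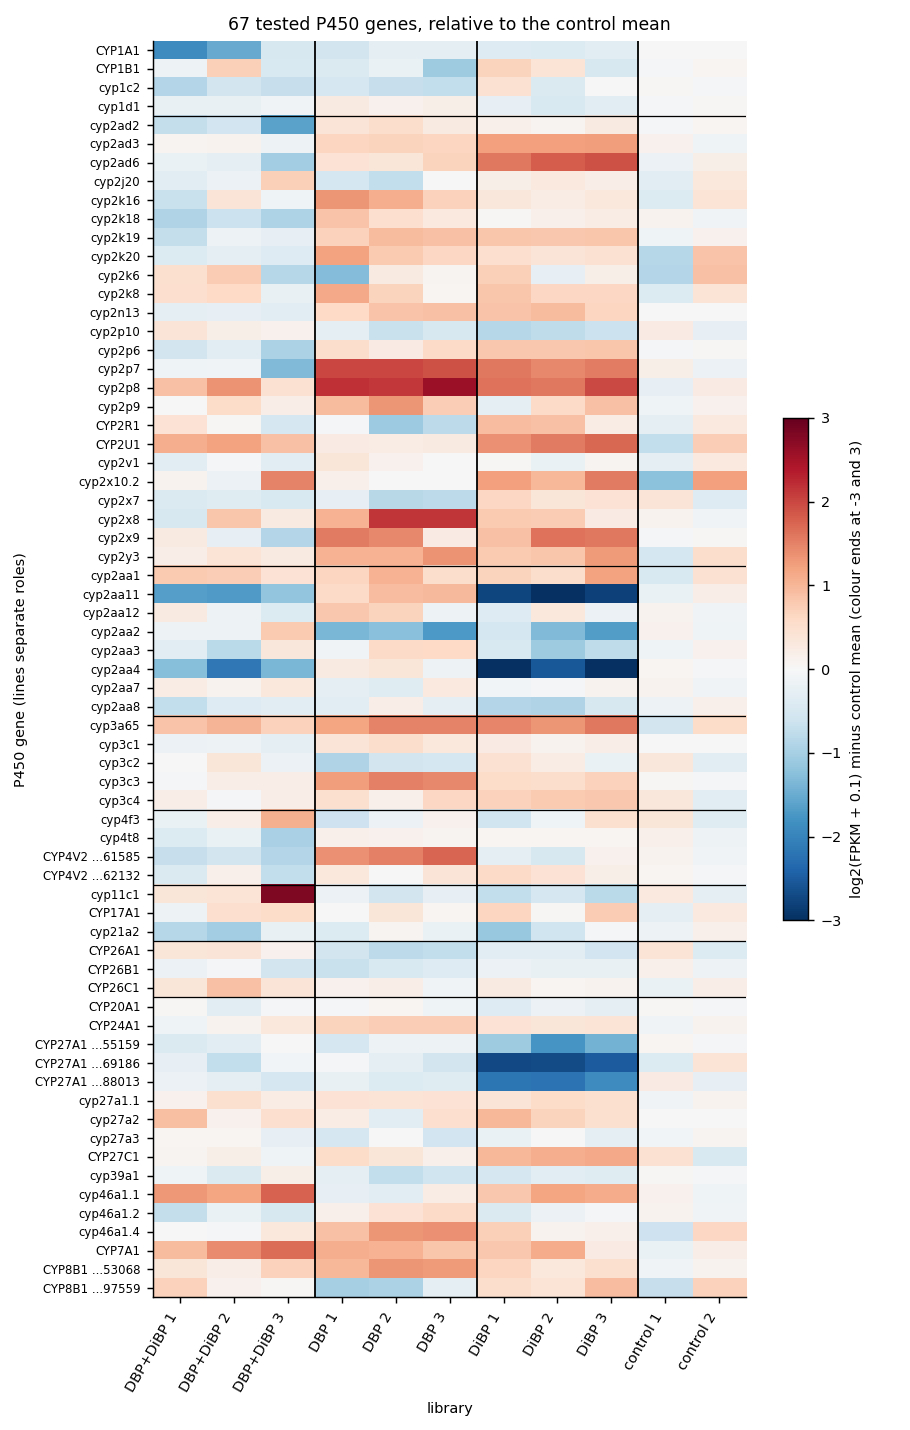
Level of the 67 tested P450 genes in each of the 11 libraries on the log2(FPKM + 0.1) scale, as the difference from the control mean (colour, ending at -3 and 3), with the groups in the order DBP+DiBP, DBP, DiBP and control. Of the 24 family 2 genes, 11 have a difference from control above 0 with DBP+DiBP, 19 with DBP and 22 with DiBP (red); the 3 CYP27A1 genes, cyp2aa11 and cyp2aa4 are blue in the DiBP columns.

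Family 2 outside the cyp2aa cluster is the largest role. Of its 24 tested genes, 0 were higher and 1 was lower with DBP+DiBP, 7 were higher and 0 lower with DBP, and 10 were higher and 1 lower with DiBP. The share called was 4.17% with DBP+DiBP, 29.2% with DBP and 45.8% with DiBP, where all tested genes had 3.45% with DBP+DiBP, 15.1% with DBP and 29.8% with DiBP. For the counts of 0, voom on the recovered reads also gave 0, and at an unadjusted p under 0.05 limma had 2 higher with DBP+DiBP and 2 lower with DBP. Its median difference was -0.07 for DBP+DiBP, 0.59 for DBP and 0.69 for DiBP. Without control 1 the median was 0.37 for DBP and 0.42 for DiBP, and without control 2 it was 0.88 for DBP and 0.97 for DiBP. For both isomers fewer family 2 genes were called without control 1 and more without control 2, as among all tested genes.

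The highest member, cyp2ad3 (ENSDARG00000022650), belongs to a run of neighbouring family 2 genes that includes the cyp2p genes, cyp2n13 and cyp2ad6 in the RefSeq gene order of the GRCz12tu assembly. It had 67.5, 69.9 and 54.0 FPKM in DBP+DiBP libraries, 88.8, 88.3 and 88.1 FPKM in DBP libraries, 133, 141 and 139 FPKM in DiBP libraries, and 65.8 and 55.3 FPKM in controls. The 3 DiBP libraries were highest, the 3 DBP libraries came next without overlap, and the DBP+DiBP libraries overlapped the controls. The difference from control was 0.65 ± 0.10 for DBP (adjusted p = 0.00214, limma) and 1.24 ± 0.10 for DiBP (adjusted p = 1.78e-05, limma). DBP was lower than DiBP by a difference of -0.59 ± 0.09 (adjusted p = 0.0021, limma).

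In the same run, cyp2p7 and cyp2p8 had the greatest differences from control among tested family 2 genes with DBP. For cyp2p7 (ENSDARG00000042980) the values were 2.47, 2.56 and 0.956 FPKM in DBP+DiBP libraries, 9.96, 9.73 and 9.29 FPKM in DBP libraries, 7.42, 7.08 and 7.27 FPKM in DiBP libraries, and 2.88 and 2.27 FPKM in controls. Every single-isomer library had more than 7 FPKM and every other library under 3 FPKM. The difference from control was 1.97 ± 0.29 for DBP (adjusted p = 0.00138, limma) and 1.51 ± 0.29 for DiBP (adjusted p = 0.00273, limma). The combination differed from DBP by -2.50 ± 0.26 (adjusted p = 9.5e-05, limma) and from DiBP by -2.04 ± 0.26 (adjusted p = 0.000178, limma).

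The gene beside it, cyp2p8 (ENSDARG00000042982), had 0.879, 1.3 and 0.599 FPKM in DBP+DiBP libraries, 2.08, 1.95 and 2.72 FPKM in DBP libraries, 1.39, 1.43 and 1.82 FPKM in DiBP libraries, and 0.328 and 0.498 FPKM in controls. The groups did not overlap, and the order ran DBP, DiBP, DBP+DiBP, control. The control values rest on 9 and 14 reads. The difference from control was 2.29 ± 0.29 for DBP (adjusted p = 0.00053, limma) and 1.73 ± 0.29 for DiBP (adjusted p = 0.00122, limma). With a pseudocount of 1 these were 1.26 and 0.87, still called.

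The run also holds cyp2ad6 and cyp2n13. cyp2ad6 (ENSDARG00000042956) had 2.34, 2.23 and 1.19 FPKM in DBP+DiBP libraries, 3.28, 3.05 and 3.89 FPKM in DBP libraries, 7.33, 9.21 and 9.57 FPKM in DiBP libraries, and 2.23 and 2.91 FPKM in controls. The DiBP libraries stood clear of all others, by 1.77 ± 0.24 against control (adjusted p = 0.000378, limma), and DBP was lower than DiBP by a difference of -1.28 ± 0.22 (adjusted p = 0.00338, limma). cyp2n13 (ENSDARG00000042953) had 3.71, 3.91 and 3.4 FPKM in DBP+DiBP libraries, 6.18, 7.23 and 7.43 FPKM in DBP libraries, 7.37, 8.36 and 6.51 FPKM in DiBP libraries, and 4.24 and 4.32 FPKM in controls. It rose with both isomers, by 0.78 ± 0.14 for DBP (adjusted p = 0.00396, limma) and 0.82 ± 0.14 for DiBP (adjusted p = 0.00136, limma), and all 3 DBP+DiBP libraries lay under both controls. The isomers did not differ detectably for cyp2n13, with a difference of -0.04 ± 0.12 (adjusted p = 0.863, limma).

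cyp2k19 (ENSDARG00000101861) had 0.831, 1.29 and 1.12 FPKM in DBP+DiBP libraries, 2.12, 2.47 and 2.39 FPKM in DBP libraries, 2.3, 2.44 and 2.38 FPKM in DiBP libraries, and 1.21 and 1.49 FPKM in controls. It rose with both isomers, by 0.84 ± 0.19 for DBP (adjusted p = 0.0113, limma) and 0.82 ± 0.19 for DiBP (adjusted p = 0.00667, limma), and the DBP call was lost without control 1. cyp2y3 (ENSDARG00000101423) had 2.81, 3.29 and 2.78 FPKM in DBP+DiBP libraries, 4.51, 4.45 and 5.59 FPKM in DBP libraries, 3.77, 4.12 and 5.43 FPKM in DiBP libraries, and 1.53 and 3.35 FPKM in controls. Its differences of 1.15 ± 0.26 for DBP (adjusted p = 0.0125, limma) and 0.97 ± 0.26 for DiBP (adjusted p = 0.0154, limma) were both lost without control 1, its lowest library, and the DiBP call also without DiBP 3.

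cyp2p6, a further gene of the cyp2p run, had 4.72, 5.59 and 3.33 FPKM in DBP+DiBP libraries, 9.01, 7.26 and 9.26 FPKM in DBP libraries, 11, 11.6 and 11.4 FPKM in DiBP libraries, and 6.4 and 6.78 FPKM in controls. All single-isomer libraries lay above both controls and all DBP+DiBP libraries below. It was higher than control with DiBP by 0.82 ± 0.16 (adjusted p = 0.00318, limma), and the DBP difference of 0.45 ± 0.16 did not pass (adjusted p = 0.0775, limma). Further along the run, cyp2p10 (ENSDARG00000042990) went the other way, with 7.51, 6.65 and 5.88 FPKM in DBP+DiBP libraries, 4.18, 3.08 and 3.6 FPKM in DBP libraries, 2.75, 3.13 and 3.31 FPKM in DiBP libraries, and 6.44 and 4.52 FPKM in controls. All 6 single-isomer libraries lay under both controls, and the DiBP difference was -0.75 ± 0.18 (adjusted p = 0.0091, limma), a call lost without control 1. cyp2k18 had 1.62, 1.99 and 1.5 FPKM in DBP+DiBP libraries, 5.15, 3.88 and 3.39 FPKM in DBP libraries, 2.86, 3.26 and 3.3 FPKM in DiBP libraries, and 3.17 and 2.73 FPKM in controls. The DBP+DiBP libraries were the 3 lowest, with a difference from control of -0.83 ± 0.18 (adjusted p = 0.0339, limma). That call was lost without control 1, DBP 2, any 1 DiBP library, DBP+DiBP 1 or DBP+DiBP 2.

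Lower in level were CYP2R1, CYP2U1 and cyp2x7, each called between the isomers. CYP2R1, which in mammals hydroxylates vitamin D in the liver, had 0.708, 0.517 and 0.297 FPKM in DBP+DiBP libraries, 0.426, 0.152 and 0.212 FPKM in DBP libraries, 0.917, 0.945 and 0.542 FPKM in DiBP libraries, and 0.362 and 0.588 FPKM in controls. It was lower with DBP than with DiBP, by -1.32 ± 0.35 (adjusted p = 0.0288, limma), a call lost without DBP 2, DBP 3, DiBP 1 or DiBP 2. CYP2U1, a fatty acid hydroxylase in mammals, had 0.878, 0.975 and 0.696 FPKM in DBP+DiBP libraries, 0.391, 0.376 and 0.393 FPKM in DBP libraries, 0.956, 1.18 and 1.28 FPKM in DiBP libraries, and 0.159 and 0.622 FPKM in controls. Its difference between DiBP and control of 1.55 ± 0.37 (adjusted p = 0.00836, limma) was lost without control 1. DBP was lower than DiBP by a difference of -1.30 ± 0.33 (adjusted p = 0.0235, limma), a call lost without any 1 of the 6 DBP or DiBP libraries. cyp2x7 had 0.785, 0.844 and 0.728 FPKM in DBP+DiBP libraries, 0.812, 0.496 and 0.518 FPKM in DBP libraries, 1.54, 1.35 and 1.38 FPKM in DiBP libraries, and 1.38 and 0.768 FPKM in controls. It was lower with DBP than with DiBP, by -1.09 ± 0.25 (adjusted p = 0.0166, limma), a call lost without DBP 2, DBP 3, DiBP 1 or DiBP 3.

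A further pair of cyp2x genes was called against control from few reads. cyp2x8, at a mean of 13.6 reads per library, was higher with DBP by 1.77 ± 0.43 (adjusted p = 0.0182, limma), a call lost without DBP 2 or DBP 3 and in a fit of those groups alone. cyp2x9, at a mean of 16.7 reads per library, was higher with DiBP by 1.36 ± 0.45 (adjusted p = 0.0376, limma), a call lost without either control, DiBP 2, DiBP 3 or DBP+DiBP 2, with no filter on low values and by voom on recovered reads.

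Of the 5 tested family 3 genes, 3 were higher with DBP and 3 with DiBP, and 0 were lower with either, by limma or voom or at an unadjusted p under 0.05. With DBP+DiBP 0 were called by limma or by voom on the recovered reads, and 2 reached an unadjusted p under 0.05 by limma. The difference of differences was called below 0 for 4 of the 5, and for 18.6% of all tested genes. Called higher among all tested genes were 9.61% with DBP and 15.8% with DiBP, and 3.45% were called with DBP+DiBP.

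cyp3a65 (ENSDARG00000103295), the zebrafish relative of the mammalian CYP3A enzymes of liver and gut, had 46.4, 53.3 and 38.9 FPKM in DBP+DiBP libraries, 52.3, 62.7 and 63.4 FPKM in DBP libraries, 62.8, 61.1 and 69.8 FPKM in DiBP libraries, and 16.4 and 35.4 FPKM in controls. All 9 exposed libraries lay above both controls, and the controls were more than 2-fold apart. The difference was 1.39 ± 0.24 for DBP (adjusted p = 0.00312, limma) and 1.46 ± 0.24 for DiBP (adjusted p = 0.00106, limma). Without control 1 these were 0.84 and 0.91, and without control 2 they were 1.94 and 2.01. For DBP+DiBP the difference was 0.85 ± 0.24 and did not pass (adjusted p = 0.0694, limma); it was 0.31 without control 1 (adjusted p = 0.291, limma) and 1.40 without control 2 (adjusted p = 2.52e-05, limma). With 1 control left, that library is taken to vary like the other groups. DBP and DiBP did not differ detectably, with a difference of -0.07 and a 95% interval from -0.535 to 0.389.

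cyp3c3 (ENSDARG00000037873) had 1.73, 2.12 and 1.95 FPKM in DBP+DiBP libraries, 3.9, 4.59 and 4.43 FPKM in DBP libraries, 2.36, 2.45 and 2.66 FPKM in DiBP libraries, and 1.71 and 1.64 FPKM in controls. DBP libraries were highest and DiBP libraries intermediate, with no overlap between these groups or with controls. The difference from control was 1.40 ± 0.16 for DBP (adjusted p = 0.000277, limma) and 0.59 ± 0.16 for DiBP (adjusted p = 0.0156, limma), and the DiBP call was lost without DiBP 3. DBP exceeded DiBP by 0.81 ± 0.14 (adjusted p = 0.00387, limma). cyp3c1 was higher with DBP by 0.41 ± 0.10 (adjusted p = 0.0159, limma), a call lost without DBP 2, and cyp3c4 with DiBP by 0.76 ± 0.26 (adjusted p = 0.0427, limma), a call lost without 8 of the 11 libraries in turn. The fifth gene, cyp3c2, had 0.756, 1.02 and 0.617 FPKM in DBP+DiBP libraries, 0.315, 0.420 and 0.439 FPKM in DBP libraries, 0.962, 0.842 and 0.587 FPKM in DiBP libraries, and 0.921 and 0.547 FPKM in controls. Its 3 DBP libraries lay under both controls, a difference of -0.66 ± 0.31 that did not pass the test (adjusted p = 0.178, limma).

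**Figure D3:**
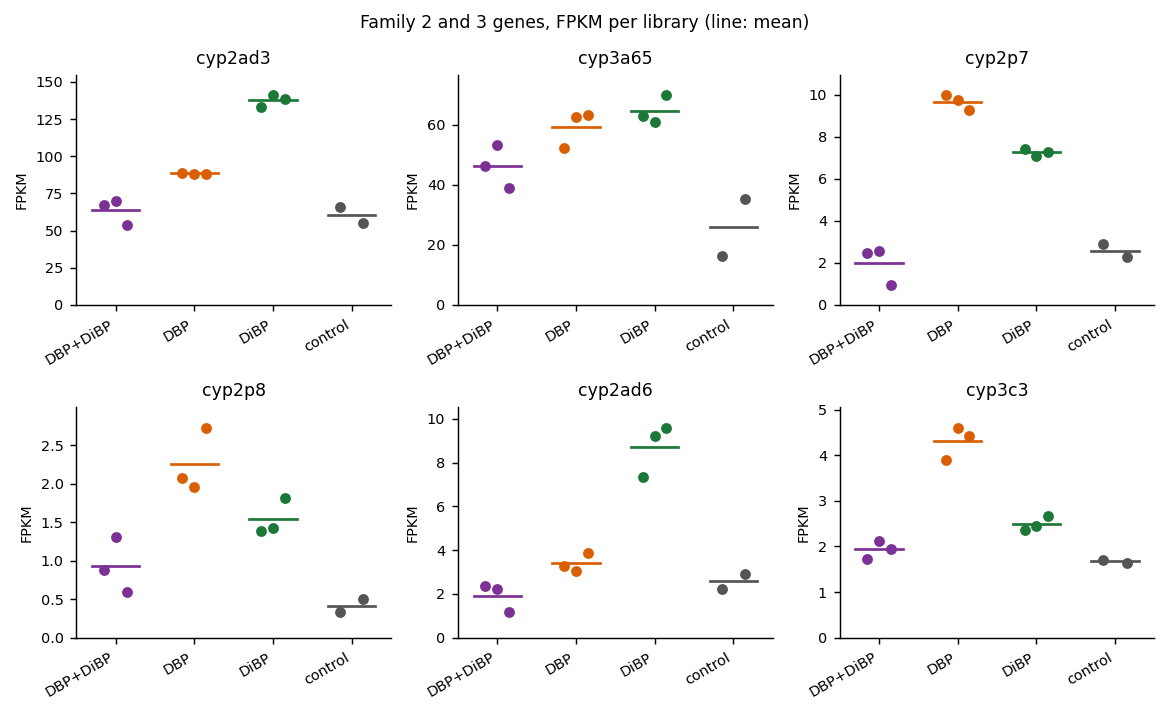
FPKM of 6 family 2 and 3 genes in each library (vertical axes, linear from 0), by group in the order DBP+DiBP, DBP, DiBP and control; points are libraries and lines are group means. The DBP and DiBP points lie above the controls in each panel, with cyp2p7 above 7 FPKM in both single-isomer groups and under 3 FPKM elsewhere.

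In the fit of all libraries, gut, pancreas and muscle markers moved in the same direction as families 2 and 3. Of 24 tested enterocyte markers, 4 were higher and 0 lower with DBP+DiBP, 16 higher and 0 lower with DBP, and 17 higher and 1 lower with DiBP, and the difference of differences was called below 0 for 18. Their summed level was 1021 to 1404 FPKM in DBP+DiBP libraries, 1715 to 1866 FPKM in DBP libraries, 1634 to 1818 FPKM in DiBP libraries, and 274.5 and 1255 FPKM in controls. Of 18 tested hepatocyte markers, 0 were called with DBP+DiBP, 1 was higher with DBP, and 4 were higher and 1 lower with DiBP, with summed levels of 302.3 to 647.6 FPKM in DBP+DiBP libraries, 493.1 to 547.8 FPKM in DBP libraries, 584 to 601.6 FPKM in DiBP libraries, and 240.3 and 526.3 FPKM in controls. Of 19 tested pancreas markers, 0 were called with DBP+DiBP, 14 were higher with DBP and 4 with DiBP, with summed levels of 771 to 935.1 FPKM in DBP+DiBP libraries, 1452 to 1903 FPKM in DBP libraries, 1035 to 1081 FPKM in DiBP libraries, and 469.2 and 1202 FPKM in controls. Of 22 tested muscle markers, 0 were called with DBP+DiBP, 10 were higher with DBP and 13 with DiBP, with summed levels of 38950 to 49680 FPKM in DBP+DiBP libraries, 50460 to 56590 FPKM in DBP libraries, 50070 to 54800 FPKM in DiBP libraries, and 12490 and 43640 FPKM in controls. The difference of differences was called below 0 for 15 of the 19 pancreas markers and 14 of the 22 muscle markers. For liver, 1 marker was called above 0 and 1 below. Among all tested genes, 18.6% were called below 0 in that contrast. The share of all tested genes called was 3.45% with DBP+DiBP, 15.1% with DBP and 29.8% with DiBP. Control 1 was the lowest library for gut, liver, pancreas and muscle markers. Of 4 tested interrenal markers, 1 was higher and 1 lower with DiBP and 0 were called with the other exposures, and of 16 lens markers 5 were lower with DBP+DiBP, 4 with DBP and 9 with DiBP. Without control 1, the enterocyte markers that were higher numbered 2 with DBP+DiBP, 16 with DBP and 13 with DiBP. Of the pancreas markers, 0 were then higher and 6 lower with DBP+DiBP, 7 higher with DBP, and 1 higher and 2 lower with DiBP. Of the muscle markers, 0 were then higher and 2 lower with DBP+DiBP, 5 higher and 1 lower with DBP, and 7 higher with DiBP. Lens markers that were lower then numbered 4 with DBP+DiBP, 0 with DBP and 8 with DiBP. For the counts of 0 with DBP+DiBP, voom gave 0 for liver, pancreas and interrenal markers and 1 for muscle, and at an unadjusted p under 0.05 limma had 4 liver, 0 pancreas, 0 interrenal and 10 muscle markers. With DBP, interrenal markers had 0 calls by voom and 2 at an unadjusted p under 0.05. None of the enterocyte or hepatocyte markers was at 0 FPKM in any library. The part of these tissues in the P450 differences was not tested, and in whole larvae fewer cells of a type and less RNA per cell cannot be told apart. The median family 2 difference without control 1 was 0.37 for DBP and 0.42 for DiBP, against 0.59 for DBP and 0.69 for DiBP over all libraries.

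The cyp2aa cluster is a zebrafish group of family 2 genes that lie side by side. Of its 9 genes 8 were tested, since cyp2aa9 had 2 reads in all. With DBP+DiBP 0 were higher and 2 lower, with DBP 0 were higher and 1 lower, and with DiBP 0 were higher and 3 lower. The share called was 25% with DBP+DiBP, 12.5% with DBP and 37.5% with DiBP. All tested genes had 3.45% called with DBP+DiBP, 15.1% with DBP and 29.8% with DiBP. For the counts of 0 higher, voom gave 0 with DBP+DiBP, 1 with DBP and 0 with DiBP, and at an unadjusted p under 0.05 limma had 0 with DBP+DiBP, 2 with DBP and 1 with DiBP. Without control 1, the lower counts were 1 with DBP+DiBP, 0 with DBP and 2 with DiBP. The median difference was -0.18 for DBP+DiBP, 0.26 for DBP and -0.76 for DiBP.

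cyp2aa11 (ENSDARG00000103456) had 0.428, 0.416 and 0.587 FPKM in DBP+DiBP libraries, 2.12, 2.65 and 2.82 FPKM in DBP libraries, 0.122, 0.039 and 0.12 FPKM in DiBP libraries, and 1.26 and 1.71 FPKM in controls. All 4 groups were separate, and the DiBP values rest on 3, 1 and 3 reads, against 31 and 43 in controls. The DiBP difference was -3.02 ± 0.31 (adjusted p = 7.39e-05, limma), with values from -3.93 to -1.16 across the other settings tried, the extremes depending on the pseudocount. The DBP+DiBP difference was -1.51 ± 0.31 (adjusted p = 0.0267, limma), and this call was lost without DBP+DiBP 1 or DBP+DiBP 2. DBP exceeded DiBP by 3.84 ± 0.28 (adjusted p = 1.19e-05, limma).

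Its neighbour cyp2aa4 (ENSDARG00000098803) had the same order of groups, with 0.698, 0.339 and 0.607 FPKM in DBP+DiBP libraries, 1.996, 2.095 and 1.46 FPKM in DBP libraries, 0.111, 0.212 and 0.108 FPKM in DiBP libraries, and 1.81 and 1.66 FPKM in controls. DBP overlapped control here, while DiBP and DBP+DiBP lay below both. The difference from control was -1.60 ± 0.32 for DBP+DiBP (adjusted p = 0.023, limma), a call lost without control 1 or DBP+DiBP 2, and -2.90 ± 0.32 for DiBP (adjusted p = 0.00011, limma). With a pseudocount of 1 the DiBP difference was -1.24, still called. DBP exceeded DiBP by 3.07 ± 0.29 (adjusted p = 7.33e-05, limma). In both genes the combination lay between the 2 isomers, above DiBP by 1.51 ± 0.28 for cyp2aa11 (adjusted p = 0.00232, limma) and 1.31 ± 0.29 for cyp2aa4 (adjusted p = 0.00632, limma).

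cyp2aa2 had 0.901, 0.914 and 1.73 FPKM in DBP+DiBP libraries, 0.293, 0.313 and 0.205 FPKM in DBP libraries, 0.597, 0.321 and 0.219 FPKM in DiBP libraries, and 1.04 and 0.874 FPKM in controls. It was lower with both isomers, by -1.45 ± 0.39 for DBP (adjusted p = 0.0283, limma) and -1.18 ± 0.39 for DiBP (adjusted p = 0.04, limma). The DBP call was lost without control 1 or any 1 DBP library, and the DiBP call without either control, any 1 DBP library, DiBP 2 or DiBP 3. The highest gene of the cluster, cyp2aa7, was not called in a control comparison: it had 6.89, 6.55 and 6.99 FPKM in DBP+DiBP libraries, 4.35, 3.98 and 6.46 FPKM in DBP libraries, 4.91, 5.44 and 5.8 FPKM in DiBP libraries, and 6.03 and 5.17 FPKM in controls.

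The rest of the cluster was not called in a control comparison. cyp2aa1 had 1.97, 1.92 and 1.41 FPKM in DBP+DiBP libraries, 1.56, 2.05 and 1.43 FPKM in DBP libraries, 1.59, 1.52 and 2.4 FPKM in DiBP libraries, and 0.722 and 1.45 FPKM in controls. cyp2aa12 had 0.386, 0.268 and 0.189 FPKM in DBP+DiBP libraries, 0.542, 0.469 and 0.231 FPKM in DBP libraries, 0.184, 0.377 and 0.231 FPKM in DiBP libraries, and 0.315 and 0.256 FPKM in controls. For cyp2aa12 every exposed group overlapped the controls, whereas the 3 DiBP values of cyp2aa1 lay above both. cyp2aa3 had 0.209, 0.122 and 0.369 FPKM in DBP+DiBP libraries, 0.235, 0.419 and 0.438 FPKM in DBP libraries, 0.16, 0.0763 and 0.117 FPKM in DiBP libraries, and 0.239 and 0.312 FPKM in controls. cyp2aa8 had 0.0261, 0.0634 and 0.0638 FPKM in DBP+DiBP libraries, 0.061, 0.13 and 0.0681 FPKM in DBP libraries, 0.0124, 0.0119 and 0.0485 FPKM in DiBP libraries, and 0.0869 and 0.133 FPKM in controls. Neither exceeded 11 reads in a library, and their 3 DiBP values lay under both controls, as did the 3 DBP+DiBP values of cyp2aa8; none of these differences passed the test. The labels do not say how reads shared by close copies were counted, so the split of reads within the cluster is uncertain.

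**Figure D4:**
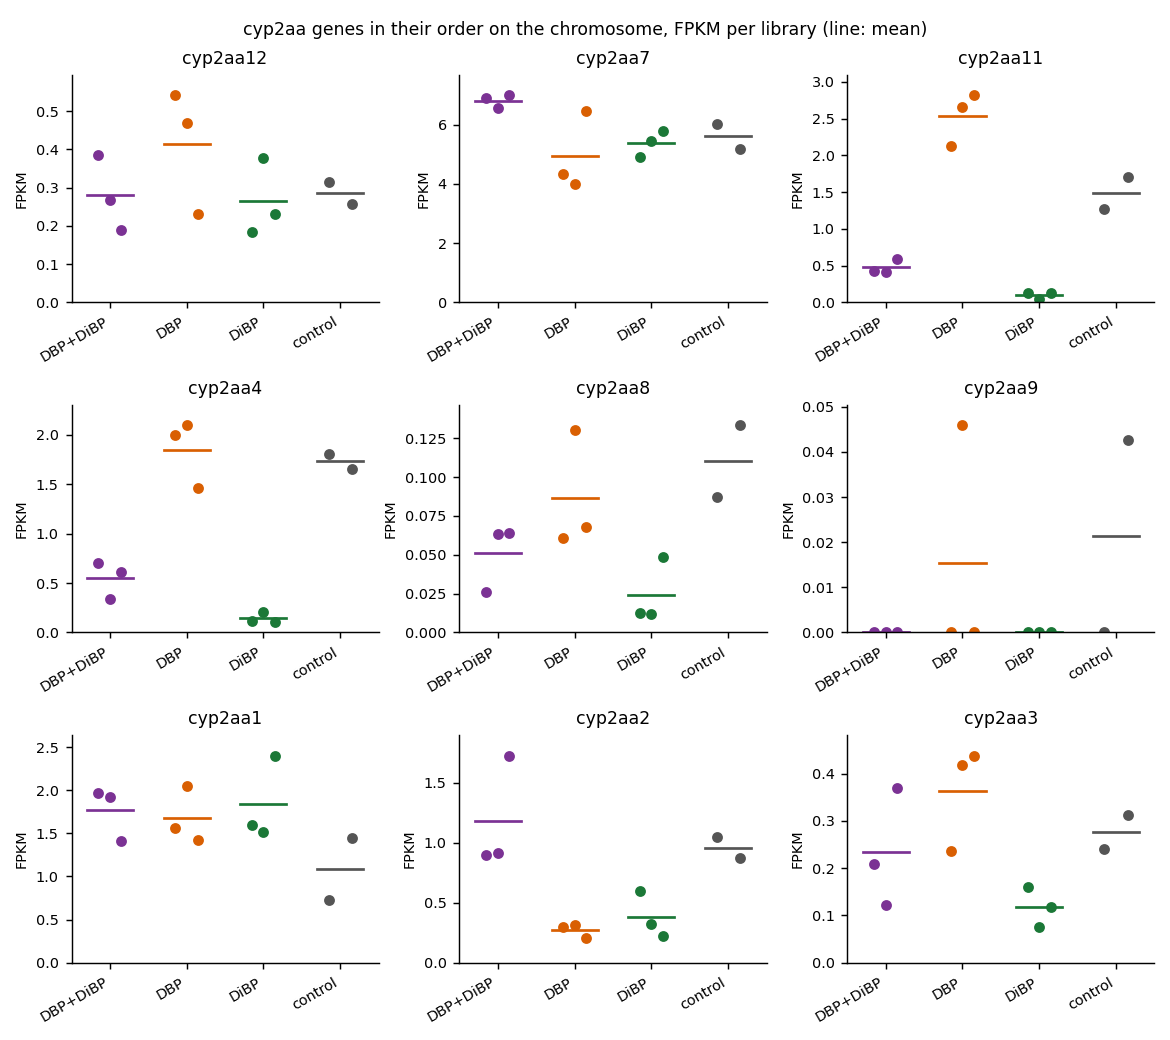
FPKM of the 9 cyp2aa genes in each library (vertical axes, linear from 0, scaled per gene), placed in their order along the chromosome, by group in the order DBP+DiBP, DBP, DiBP and control; points are libraries and lines are group means. The neighbours cyp2aa11 and cyp2aa4 share the order DBP high, DBP+DiBP low and DiBP lowest. The means of cyp2aa12, cyp2aa3 and cyp2aa8 have the same order of exposed groups, with libraries that overlap. The genes cyp2aa7, cyp2aa1 and cyp2aa2 do not show it.

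All 3 genes that share the symbol CYP27A1 were lower with DiBP, and none was called with DBP+DiBP or DBP. CYP27A1 is a mitochondrial sterol hydroxylase of bile acid synthesis. For ENSDARG00000088013 the values were 9.7, 9.24 and 7.3 FPKM in DBP+DiBP libraries, 8.38, 7.19 and 7.55 FPKM in DBP libraries, 2.1, 2.15 and 2.63 FPKM in DiBP libraries, and 12.3 and 8.69 FPKM in controls. For ENSDARG00000069186 they were 1.77, 1.26 and 1.89 FPKM in DBP+DiBP libraries, 1.87, 1.49 and 1.26 FPKM in DBP libraries, 0.211, 0.231 and 0.265 FPKM in DiBP libraries, and 1.48 and 2.74 FPKM in controls. In both genes the 3 DiBP libraries were the lowest of all 11.

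The third gene, ENSDARG00000055159, had 2.55, 2.82 and 3.3 FPKM in DBP+DiBP libraries, 2.17, 2.71 and 2.75 FPKM in DBP libraries, 1.42, 0.894 and 1.13 FPKM in DiBP libraries, and 3.4 and 3.18 FPKM in controls. It too was lowest in the DiBP libraries. With DiBP the difference from control was -2.09 ± 0.17 for ENSDARG00000088013 (adjusted p = 1.64e-05, limma), -2.62 ± 0.29 for ENSDARG00000069186 (adjusted p = 0.00011, limma) and -1.42 ± 0.23 for ENSDARG00000055159 (adjusted p = 0.00108, limma). These 3 stayed called in every alternative that gave a value, and with a pseudocount of 1 ENSDARG00000069186 differed by -1.28. DBP exceeded DiBP by 1.76 ± 0.15 for ENSDARG00000088013, 2.33 ± 0.26 for ENSDARG00000069186 and 1.14 ± 0.21 for ENSDARG00000055159, and each was called. The related cyp27a1.1 moved the other way with DiBP, by 0.47 ± 0.14 (adjusted p = 0.0247, limma), a call lost without control 1, DiBP 2 or DiBP 3.

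cyp46a1.1 (ENSDARG00000012137), a relative of the cholesterol hydroxylase of mammalian brain, had 3.5, 3.27 and 4.59 FPKM in DBP+DiBP libraries, 0.988, 0.925 and 1.41 FPKM in DBP libraries, 2.17, 3.04 and 2.77 FPKM in DiBP libraries, and 1.38 and 1.17 FPKM in controls. The DBP+DiBP and DiBP libraries lay above both controls, and DBP overlapped them. The difference from control was 1.42 ± 0.23 for DBP+DiBP (adjusted p = 0.00834, limma) and 1.04 ± 0.23 for DiBP (adjusted p = 0.00653, limma). In a fit of the compared groups alone the DBP+DiBP call was lost, as were all others with DBP+DiBP against control. No tested gene was called in that fit. DBP was lower than DiBP by a difference of -1.15 ± 0.21 (adjusted p = 0.00472, limma).

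CYP27C1, which in zebrafish converts vitamin A to its didehydro form, had 4.27, 4.63 and 3.44 FPKM in DBP+DiBP libraries, 5.22, 4.47 and 3.96 FPKM in DBP libraries, 7.16, 8.13 and 8.16 FPKM in DiBP libraries, and 5.19 and 2.73 FPKM in controls. All 3 DiBP libraries lay well above both controls, by 1.08 ± 0.22 (adjusted p = 0.0037, limma), and DBP 1 was level with control 1. CYP24A1, which inactivates vitamin D, had 18.4, 22.3 and 23.8 FPKM in DBP+DiBP libraries, 28.6, 29.3 and 30.2 FPKM in DBP libraries, 24.2, 24.5 and 24.4 FPKM in DiBP libraries, and 17.8 and 20.6 FPKM in controls. Both isomers lay above both controls, by 0.71 ± 0.12 for DBP (adjusted p = 0.00316, limma) and 0.40 ± 0.12 for DiBP (adjusted p = 0.029, limma), and the DiBP call was lost without control 1 or any 1 DiBP library.

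CYP7A1 and 1 of the CYP8B1 genes, of bile acid synthesis like CYP27A1, were each called in 1 control comparison. CYP7A1, the rate-limiting enzyme of bile acid synthesis, had 0.611, 0.908 and 1.02 FPKM in DBP+DiBP libraries, 0.605, 0.575 and 0.488 FPKM in DBP libraries, 0.48, 0.654 and 0.301 FPKM in DiBP libraries, and 0.205 and 0.301 FPKM in controls. Of the 9 exposed libraries, 8 lay clearly above both controls, and DiBP 3 matched control 2. It was called with DBP+DiBP, by 1.35 ± 0.33 (adjusted p = 0.0452, limma), and lost without any 1 library except control 2. CYP8B1 ENSDARG00000053068, a sterol hydroxylase of cholic acid synthesis, was higher with DBP by 1.2 ± 0.28 (adjusted p = 0.0134, limma), a call lost without control 1. The other tested CYP8B1 gene, ENSDARG00000097559, averaged 6 reads per library and was not called against control. It was called lower with DBP than with DiBP, a call kept in 8 of 20 alternatives.

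CYP4V2 ENSDARG00000061585, a fatty acid hydroxylase, was the 1 family 4 gene called in a control comparison. It had 0.413, 0.484 and 0.334 FPKM in DBP+DiBP libraries, 1.85, 1.99 and 2.41 FPKM in DBP libraries, 0.516, 0.467 and 0.742 FPKM in DiBP libraries, and 0.759 and 0.635 FPKM in controls. The DBP libraries stood above all others, by 1.54 ± 0.22 against control (adjusted p = 0.00112, limma) and 1.76 ± 0.20 against DiBP (adjusted p = 0.000246, limma).

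In family 1, CYP1A1 (ENSDARG00000098315), the standard reporter of the aryl hydrocarbon receptor, had 1.8, 2.39 and 4.65 FPKM in DBP+DiBP libraries, 4.17, 4.84 and 4.997 FPKM in DBP libraries, 4.69, 4.9 and 5.01 FPKM in DiBP libraries, and 6.53 and 6.48 FPKM in controls. Every exposed library was below both controls. The DBP+DiBP difference was -1.29 ± 0.30 (adjusted p = 0.0368, limma) and was lost without control 1, any 1 single-isomer library, DBP+DiBP 1 or DBP+DiBP 2. Without DBP+DiBP 3 it was -1.70. The differences of -0.38 for DBP and -0.36 for DiBP did not pass (adjusted p = 0.416 for DBP, limma).

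cyp1d1 had 2.44, 2.5 and 2.51 FPKM in DBP+DiBP libraries, 3.11, 2.75 and 2.9 FPKM in DBP libraries, 2.15, 1.96 and 2.04 FPKM in DiBP libraries, and 2.66 and 2.78 FPKM in controls. DBP exceeded DiBP by 0.54 ± 0.10 (adjusted p = 0.00554, limma). DiBP was lower than control by a difference of -0.35 ± 0.11 (adjusted p = 0.0363, limma), a call lost without either control, DBP 3, DiBP 2, DiBP 3 or DBP+DiBP 1. CYP1B1 had 0.379, 0.8 and 0.268 FPKM in DBP+DiBP libraries, 0.256, 0.316 and 0.132 FPKM in DBP libraries, 0.663, 0.576 and 0.255 FPKM in DiBP libraries, and 0.382 and 0.431 FPKM in controls. For cyp1c2 the values were 0.62, 0.825 and 0.671 FPKM in DBP+DiBP libraries, 0.733, 0.621 and 0.614 FPKM in DBP libraries, 1.53, 0.832 and 1.12 FPKM in DiBP libraries, and 1.18 and 1.12 FPKM in controls. Neither of these genes was called against control.

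Of the retinoid-clearing genes, which hydroxylate retinoic acid, CYP26A1 had 6.61, 6.8 and 5.24 FPKM in DBP+DiBP libraries, 3.06, 2.51 and 2.66 FPKM in DBP libraries, 3.62, 3.77 and 3.08 FPKM in DiBP libraries, and 6.44 and 3.57 FPKM in controls. The 3 DBP+DiBP libraries exceeded all 6 single-isomer libraries, by 0.99 ± 0.19 against DBP (adjusted p = 0.00459, limma) and 0.70 ± 0.19 against DiBP (adjusted p = 0.0209, limma). The call against DiBP was lost without DiBP 3, DBP+DiBP 1 or DBP+DiBP 2. Against control DBP was lower by a difference of -0.70 ± 0.22 (adjusted p = 0.049, limma), which was -0.28 without control 1 and -1.12 without control 2. That call was lost without control 1, any 1 single-isomer library, DBP+DiBP 1 or DBP+DiBP 2.

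CYP26B1 had 6.21, 7.002 and 4.53 FPKM in DBP+DiBP libraries, 3.9, 4.42 and 4.72 FPKM in DBP libraries, 5.46, 5.7 and 5.5 FPKM in DiBP libraries, and 7.32 and 6.01 FPKM in controls. DBP was lower than control by a difference of -0.51 ± 0.15 (adjusted p = 0.0412, limma), a call lost without control 1, any 1 single-isomer library or DBP+DiBP 1. CYP26C1 had 2.21, 3.27 and 2.11 FPKM in DBP+DiBP libraries, 1.66, 1.7 and 1.39 FPKM in DBP libraries, 1.82, 1.68 and 1.66 FPKM in DiBP libraries, and 1.38 and 1.86 FPKM in controls, and was not called against control.

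Among the 20 tested retinoid partner genes, 3 were higher and 0 lower with DBP+DiBP, 3 higher and 0 lower with DBP, and 2 higher and 1 lower with DiBP. The share of all tested genes called was 3.45% with DBP+DiBP, 15.1% with DBP and 29.8% with DiBP. RBP2 ENSDARG00000070038, a retinol-binding protein of enterocytes in mammals, was higher in all 3, by 1.60 ± 0.33 with DBP+DiBP, 2.56 ± 0.33 with DBP and 1.69 ± 0.33 with DiBP. The other RBP2 gene, ENSDARG00000093774, was not called, with differences of -0.12 with DBP+DiBP, 0.20 with DBP and -0.67 with DiBP. CRABP1 ENSDARG00000045926, a binding protein for retinoic acid, was lower with DiBP by a difference of -0.89 ± 0.12 (adjusted p = 0.000309, limma), and the other CRABP1 gene, ENSDARG00000035904, differed by -0.54 ± 0.20, which did not pass (adjusted p = 0.0571, limma).

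Of the 7 steroid-making genes, 4 were too low to test. The other 3, cyp11c1, CYP17A1 and cyp21a2, averaged 70.7, 20.9 and 8.7 reads per library. With all 11 libraries in the fit, none was called against control by limma or by voom in any of the 3 comparisons. At an unadjusted p under 0.05 there were 0 in each. Without DBP+DiBP 3, 1 of these genes was called lower with DiBP, where 34.5% of all tested genes were called. cyp11c1, which acts last in cortisol synthesis, had 1.86, 1.95 and 9.86 FPKM in DBP+DiBP libraries, 1.1, 0.804 and 1.05 FPKM in DBP libraries, 0.711, 0.914 and 0.694 FPKM in DiBP libraries, and 1.67 and 1.07 FPKM in controls. All 3 DBP+DiBP libraries lay above every other library, and DBP+DiBP 3, at 9.86 FPKM from 351 reads, lay far above the rest. The difference from control was 1.19 with DBP+DiBP 3 and 0.39 without it. The combination was called higher than DiBP, a call lost without DiBP 1 or DiBP 3 and by voom on recovered reads. CYP17A1, which makes sex steroid precursors, had 0.383, 0.67 and 0.649 FPKM in DBP+DiBP libraries, 0.382, 0.51 and 0.4 FPKM in DBP libraries, 0.657, 0.418 and 0.736 FPKM in DiBP libraries, and 0.316 and 0.522 FPKM in controls. cyp21a2, of cortisol synthesis, had 0.111, 0.0861 and 0.217 FPKM in DBP+DiBP libraries, 0.166, 0.266 and 0.208 FPKM in DBP libraries, 0.0633, 0.141 and 0.247 FPKM in DiBP libraries, and 0.232 and 0.309 FPKM in controls. Each exposed group overlapped the controls for both genes, except that the 3 DBP+DiBP values of cyp21a2 lay under both controls, a difference of -0.70 ± 0.39 that did not pass the test (adjusted p = 0.336, limma). Among 8 tested partners in steroid synthesis, 1 was higher with DBP+DiBP, 2 with DBP and 3 with DiBP, and 0 were lower. Called higher among all tested genes were 1.76% with DBP+DiBP, 9.61% with DBP and 15.8% with DiBP. HSD11B2, which inactivates cortisol, was higher in all 3, by 0.78 ± 0.19 with DBP+DiBP, 1.48 ± 0.19 with DBP and 0.56 ± 0.19 with DiBP. Its DBP+DiBP call was lost without control 1.

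**Figure D5:**
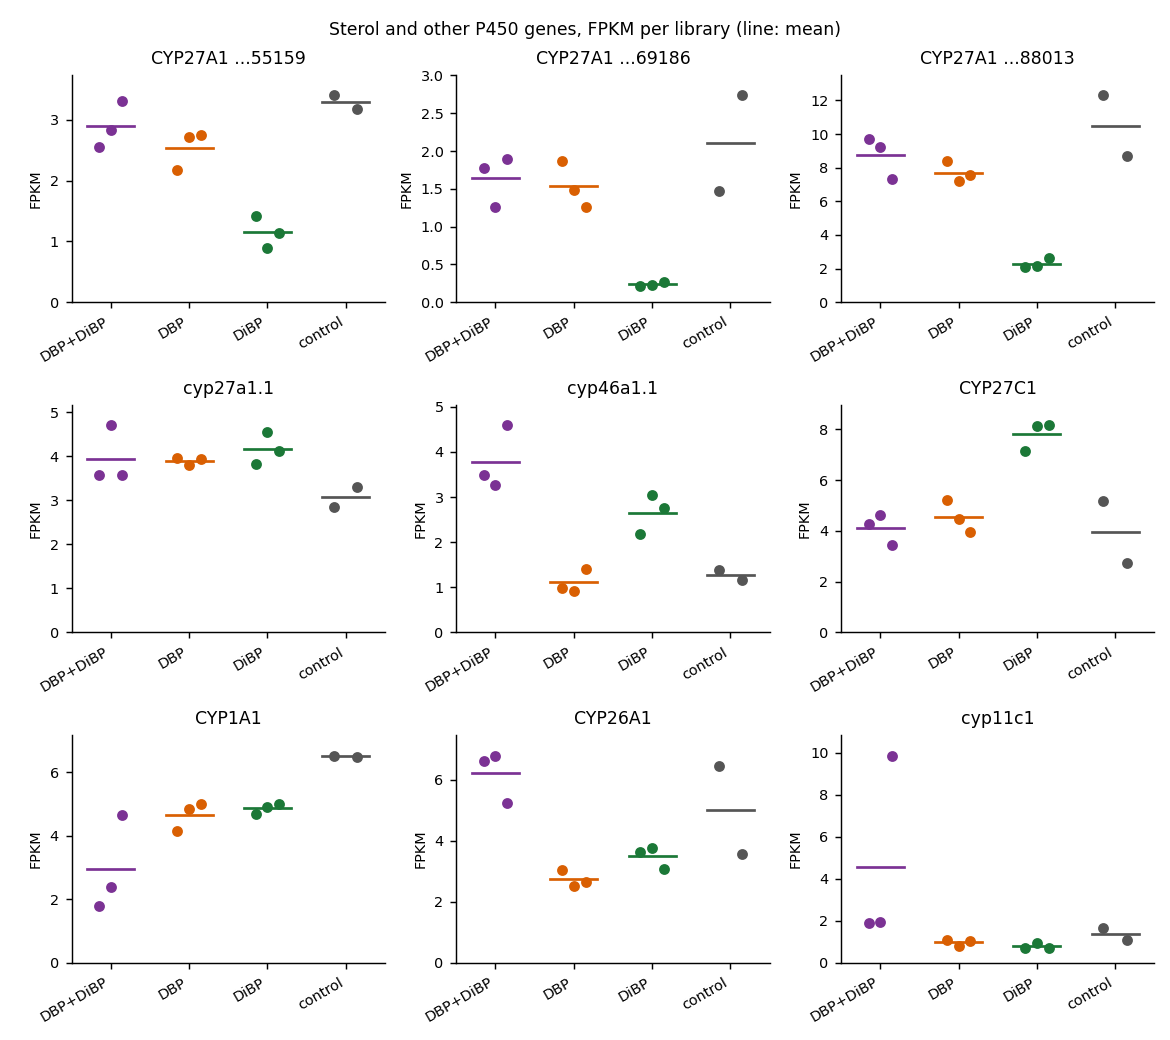
FPKM of 9 P450 genes with roles in sterols, vitamin A, foreign chemicals and steroids in each library (vertical axes, linear from 0, scaled per gene), by group in the order DBP+DiBP, DBP, DiBP and control; points are libraries and lines are group means. The 3 CYP27A1 genes are lowest in DiBP larvae, cyp46a1.1 is high in DBP+DiBP and DiBP larvae, and 1 DBP+DiBP library lies far above the rest for cyp11c1.

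Of 21 tested electron donors and heme synthesis genes, 7 were higher and 2 lower with DiBP, where 29.8% of all tested genes were called. Without control 1 these counts were 2 and 3. With DBP+DiBP and with DBP 0 were called by limma or voom, and 6 in each reached an unadjusted p under 0.05 by limma. Without control 2, 2 were higher and 4 lower with DBP+DiBP, and 2 higher and 2 lower with DBP. DBP against DiBP gave 3 calls, 1 higher and 2 lower, where 12.3% of all tested genes were called. POR ENSDARG00000059035 had 7.06, 7.72 and 5.11 FPKM in DBP+DiBP libraries, 8.63, 9.55 and 9.26 FPKM in DBP libraries, 13.7, 13.7 and 14.1 FPKM in DiBP libraries, and 7.85 and 6.95 FPKM in controls. It was highest in the DiBP libraries, by 0.95 ± 0.13 against control (adjusted p = 0.000423, limma), the same 3 libraries that were highest for cyp2ad3. The other gene with the symbol POR, ENSDARG00000055092, differed from control by 0.27 with DiBP (adjusted p = 0.042, limma).

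Of 18 tested xenobiotic receptor genes, 2 were higher and 0 lower with DBP+DiBP, 1 higher and 1 lower with DBP, and 2 higher and 3 lower with DiBP. All tested genes had 3.45% called with DBP+DiBP, 15.1% with DBP and 29.8% with DiBP. Of the receptor genes called, only HNF4A is described below. The pregnane X receptor gene NR1I2 had 0.742, 0.666 and 0.642 FPKM in DBP+DiBP libraries, 0.347, 0.6 and 0.865 FPKM in DBP libraries, 0.762, 1.195 and 1.169 FPKM in DiBP libraries, and 0.489 and 0.716 FPKM in controls, and was not called. ahr2, the main aryl hydrocarbon receptor of zebrafish larvae, lay between 4.066 and 5.618 FPKM and was not called either. HNF4A, a receptor of liver and gut, was higher in all 3 exposures, by 1.09 ± 0.25 with DBP+DiBP, 1.38 ± 0.25 with DBP and 0.83 ± 0.25 with DiBP, at 0.648 to 1.35 FPKM in exposed libraries against 0.339 and 0.457 FPKM in controls. The DBP+DiBP call for HNF4A was lost without control 1.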

How the data were processed

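The authors deposited a table of FPKM for each library. HISAT2 2.1.0, HTSeq 0.6.0 and the GRCz10 build are listed in the submitters' processing notes. Annotation release, strand setting and handling of multiply mapping reads: not given in the sources used here. FPKM values are whole multiples of what 1 read is worth, so reads were recovered for 100% of the genes within 0.001 reads of a whole number. Library totals were 13396589 to 15381114 reads.

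Tested genes reached, in 2 or more libraries, a CPM worth 10 reads, and 15 reads over all libraries, which left out 8160 of 27625 genes. TMM factors (0.9346 to 1.1012) scaled the FPKM values. limma 3.58.1 in R 4.3.3 was fitted to log2(FPKM + 0.1) over all 11 libraries with a mean for each group and a variance trend on mean CPM, giving 7 residual and 5.22 prior degrees of freedom. Scripts were tested on simulated data. Symbols came from an Ensembl table that covers 25392 of the 27625 identifiers, and gene order from RefSeq (GRCz12tu), used for order only. No sequence is printed, since none was used here.

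The members, gene lists and tests were chosen with earlier results of these data known. Values per library are given for members called in a control comparison or in DBP against DiBP whose groups do not overlap and that average at least 20 reads (up to 8 higher and 8 lower per comparison), for a panel of best-known P450 genes and for the tested cyp2aa genes; other members have shorter entries. The alternatives tried were 21: another scaling or none, other filters and pseudocounts, voom on the recovered reads, a block for the replicate number, a fit on the compared groups alone, omission of each library in turn, and omission of control 1 with DBP+DiBP 3. Counts by role without the libraries that stood apart, and marker and partner gene counts without each control, were added after seeing the data.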

Additional observations from a re-analysis of the deposited data

Results flagged for a closer look

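The effect of 1 isomer differed with and without the other for 32 of the 67 tested P450 genes, by the test of the difference of differences (DBP+DiBP minus DBP minus DiBP plus control, limma, called at an adjusted p under 0.05). The values are on the log2(FPKM + 0.1) scale with the standard error, and a negative value means a combination lower than the sum of both single differences. The adjusted p ranged from 3.67e-06 for cyp2ad3 to 0.0419 for cyp4t8, and 34% of all tested genes were called.

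In the run of neighbouring family 2 genes around cyp2ad3 the values were -1.88 ± 0.14 for cyp2ad3, -2.77 ± 0.33 for cyp2ad6, -1.52 ± 0.35 for cyp2ad2, -1.88 ± 0.19 for cyp2n13, -1.90 ± 0.22 for cyp2p6, -4.01 ± 0.39 for cyp2p7 and -3.12 ± 0.39 for cyp2p8. The one positive value in that run was 1.46 ± 0.24 for cyp2p10. Among the cyp2k genes they were -1.47 ± 0.44 for cyp2k16, -1.51 ± 0.25 for cyp2k18, -2.04 ± 0.25 for cyp2k19 and -1.68 ± 0.57 for cyp2k20. The remaining family 2 values were -2.17 ± 0.58 for cyp2x8, -2.73 ± 0.60 for cyp2x9 and -1.82 ± 0.35 for cyp2y3. In the cyp2aa cluster the value was 2.78 ± 0.53 for cyp2aa2.

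Family 3 gave -2.0 ± 0.32 for cyp3a65, -0.81 ± 0.13 for cyp3c1, -1.86 ± 0.21 for cyp3c3 and -1.05 ± 0.35 for cyp3c4. Family 4 gave -0.71 ± 0.25 for cyp4t8 and -2.03 ± 0.29 for CYP4V2 ENSDARG00000061585. CYP26A1, which clears retinoic acid, had 1.39 ± 0.29. cyp11c1, of cortisol synthesis, had 2.20 ± 0.75, and its call was lost without control 1 or any 1 single-isomer library.

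For the 3 CYP27A1 genes the values were 1.44 ± 0.31 for ENSDARG00000055159, 2.55 ± 0.39 for ENSDARG00000069186 and 2.1 ± 0.23 for ENSDARG00000088013. The other sterol, bile acid and vitamin genes gave -1.02 ± 0.16 for CYP24A1, -0.63 ± 0.19 for cyp27a1.1, -1.38 ± 0.29 for CYP27C1 and 0.83 ± 0.25 for cyp39a1, and -1.27 ± 0.37 for CYP8B1 ENSDARG00000053068. Across the alternatives that gave a value, 24 of the 32 kept their call and 0 changed sign. The call was kept in 5 of 19 alternatives for cyp2k20, 9 of 19 for cyp11c1 and 10 of 19 for cyp3c4. The other genes that lost it in some alternatives were cyp2k16, cyp4t8, cyp27a1.1, cyp39a1 and CYP8B1 ENSDARG00000053068.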

How the results depend on the processing

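Of the 151 calls of P450 genes over 7 comparisons, 0 changed sign under any of the 21 alternatives, and 0 of 6 calls with DBP+DiBP, 7 of 16 with DBP and 15 of 25 with DiBP held throughout. With each library left out in turn, the counts of called members ranged from 2 to 16 for DBP+DiBP, 11 to 27 for DBP and 17 to 26 for DiBP against control. They ranged from 11 to 20 for DBP against DiBP, 19 to 36 for DBP+DiBP against DBP, 17 to 32 against DiBP and 26 to 36 for the difference of differences. The share of all tested genes called moved too. With 1 exposed library left out, it was 1.24 to 5.59% for DBP+DiBP, 8.06 to 19.8% for DBP and 20.2 to 34.5% for DiBP against control. It was 4.99 to 17% for DBP against DiBP, 11.4 to 21.8% for DBP+DiBP against DBP and 15.1 to 23.9% against DiBP. The difference of differences had 26.9 to 35.9%. Fits with 1 control left are in the count ranges but not in these shares. A mean CPM of 5 or more, which leaves 26 members, gave 3 for DBP+DiBP and 15 for DiBP against control (all tested genes: 5.47% and 39.9%). It gave 16 for DBP+DiBP against DBP, 16 against DiBP and 6 for DBP against DiBP (all tested genes: 26.4%, 33.6% and 15.2%). The difference of differences had 19 (all tested genes: 44.7%). Fewer members were tested in that setting, and the cause of these counts was not tested. With only the groups compared in the fit, the counts were 0 for DBP+DiBP and 7 for DBP against control, and 29 for DBP against DiBP. Of all tested genes, 0% were called for DBP+DiBP and 3.95% for DBP against control, and 35.3% for DBP against DiBP. With no tested gene called for DBP+DiBP, none of its 6 calls could hold in that fit. Beside its count of 0 P450 genes, 12 members had an unadjusted p under 0.05, and voom on the recovered reads with all groups called 4. For DBP+DiBP against control and DBP against DiBP, leaving out both libraries that stood apart raised the called share of all tested genes. It also raised the P450 counts. Without both libraries that stood apart, they were 11 for DBP+DiBP against control and 31 for DBP against DiBP; the cause was not tested.

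A replicate block moved the DBP+DiBP count against control to 3 (all tested genes: 2.01%) and changed no other count by over 1.5 times. Same-numbered libraries correlated at -0.0336 to 0.136 in their deviations, and 6 of 11 correlated best with their own number. Whether replicate numbers pair the libraries was not tested. Voom called 17 members with DBP and 25 with DiBP against control. CYP26A1 with DiBP, which was not called, reversed to 0.014 without control 1, and also without both libraries that stood apart, and ranged down to -0.83 without control 2. cyp3a65 in DBP against DiBP reversed to 0.025 without DBP 1, and ranged down to -0.14 with another library left out.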
